A study of Rattus norvegicus with 6 samples.

Results

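The nuclear genes for the machinery of oxidative phosphorylation were followed in rat kidney as a set of 89 gene symbols, out of 17051 gene symbols in the data. They were chosen by name: every symbol that begins with Ndufa, Ndufb, Ndufc, Ndufs or Ndufv (complex I), the symbols Sdha to Sdhd (complex II), every symbol that begins with Uqcr and Cyc1 (complex III), Cycs (cytochrome c), every symbol from Cox4 to Cox8 (complex IV) and every symbol that begins with Atp5 (complex V). The name patterns use no measured value, although they were drawn up with earlier results of these data known. Of the 89 symbols, 76 are subunits or cytochrome c, and 13 are other proteins or entries that the name patterns also take in, such as the complex I assembly factors Ndufaf1, Ndufaf3, Ndufaf4, Ndufaf5, Ndufaf6 and Ndufaf7. Ndufa4 and its relative Ndufa4l2 were counted in complex IV and not in complex I, as Ndufa4 is a complex IV subunit despite its name. The complex IV counts also hold Cox4nb, a subunit of an endoplasmic reticulum membrane complex. The complex V counts hold Atp5sl, a complex I assembly protein despite its symbol.

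RNA was sequenced from kidney tissue of 6 male Sprague Dawley rats. The AL group (3 rats, numbered 61, 71 and 88) ate standard laboratory chow ad libitum, and the HD group (3 rats, numbered 64, 67 and 69) received the hyperammonemic diet, in which an amino acid mixture that mimics hemoglobin was mixed into powdered standard chow at 3 g/kg per day for 7 days. The labels name no genotype beyond the strain, the ages of the animals are not given in the sources used here, and the question behind the comparison is how the kidney answers a diet that raises its ammonia production. Each rat gave 1 library, so *n* = 3 per group, and the estimated counts summed to between 12499945 and 30466461 per library.

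In the inner membrane of the mitochondrion, complexes I and II take electrons from NADH and succinate and pass them to ubiquinone, complex III hands them to cytochrome c, and complex IV gives them to oxygen. Complexes I, III and IV pump protons as they do so, and complex V lets the protons flow back to make ATP. The kidney is rich in mitochondria, most of all in the proximal tubule and the thick ascending limb, which spend ATP on sodium transport, and the proximal tubule is also where ammonia is made from glutamine. A few subunits of complexes I, III, IV and V are encoded in the mitochondrial genome. They were not analysed here, because no gene of that genome is among those used.

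None of the members passed the adjusted threshold between the diets. Of the 89 symbols, 85 passed the minimum of 30 counts in at least 1 rat and were tested together with all other genes past that minimum. In edgeR's quasi-likelihood test 0 of the 85 had a Benjamini-Hochberg adjusted *P* value of at most 0.05, against 0 of all 11553 tested genes (0.0%), and 3 had an unadjusted *P* value below 0.05, against 10.6% of all tested genes. All 3 were higher in the HD group (background 4.66%) and 0 were lower (background 5.94%), so the 3.53% of the members was not above the background. DESeq2 gave 4 members at an unadjusted *P* value below 0.05 (background 11.5%) and 0 members at the adjusted threshold (background 1.58%). The log2 fold change of HD over AL was above 0 for 56 members and below 0 for 29 (above 0 in 51.3% of all tested genes), with a median of 0.034 against 0.0067 over all tested genes, and the median standard error of a member's log2 fold change was 0.15. Of the 85 tested members, 82 had at least 100 counts in every rat, and 1 (Cox4i2) reached the minimum only through an HD rat. The 4 untested symbols were Cox6a2 (1 to 6 counts per rat), Cox6b2 (1 to 19 counts), Cox8c (0 counts in all rats) and the pseudogene Cox6c-ps1.

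The members' transcripts were abundant. Their level was read as TPM, a share of the transcripts that takes account of transcript length and so can be set side by side between genes. Summed over the members, it made up 6.62% ± 0.41 of all TPM in AL and 6.52% ± 0.17 in HD (mean ± SD, *n* = 3 each). The mean TPM over the 6 rats was highest for Atp5b, the catalytic beta subunit of ATP synthase, at 4108, and Cycs followed at 3756. Cytochrome c is the soluble carrier between complexes III and IV. Among the subunits without the tissue isoforms, the median TPM was 417 in complex I (33 genes, from 87.8 for Ndufab1 to 804 for Ndufb9), 675 in complex II (4 genes, from 453 for Sdha to 913 for Sdhc), 514 in complex III (8 genes, from 218 for Uqcrq to 1110 for Uqcr11), 1536 in complex IV (10 genes, from 1109 for Cox5a to 3098 for Cox8a) and 1392 in complex V (15 genes, from 814 for Atp5f1 to 4108 for Atp5b). The lowest complex IV gene of this kind thus stood above the highest complex I gene.

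**Figure D1:**
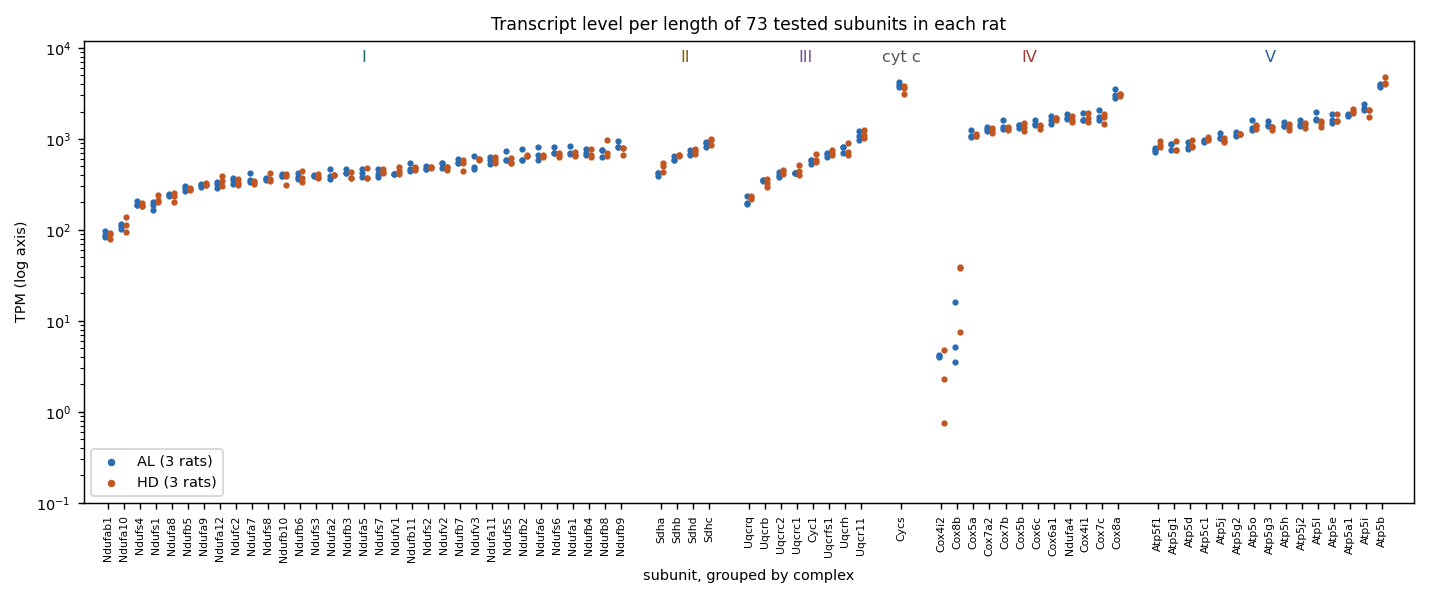
TPM of the 73 tested subunits (log axis) in each of 6 rats, ordered within each complex by mean level; blue points are the 3 AL rats and orange points the 3 HD rats. Complexes IV and V lie mostly above complex I, and Cox4i2 and Cox8b lie far below the other subunits.

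The promoters of these genes are known to be read by a few shared transcription factors, among them NRF-1, GABPA (also called NRF-2), YY1, the estrogen-related receptors (ERR) and CREB. RefSeq promoter windows of 300 bases (build GRCr8, 250 before the transcription start and 50 after) were matched for 75 of the 89 symbols. On either strand, the NRF-1 letters GCATGCGC occurred in 12 of the 75 windows (16.0%, against 2.66% of all 27457 promoters), the GABPA letters CCGGAAGT in 7 (9.33%, against 4.01%), the YY1 letters AAGATGGCG in 10 (13.3%, against 1.93%), the ERR letters TCAAGGTCA in 2 (2.67%, against 0.412%) and the CREB letters TGACGTCA in 4 (5.33%, against 1.91%). At least 1 of these strings stood in 31 windows (41.3%, against 10.1%). For NRF-1, 2 spellings were tried: the letters GCGCA and GCGC with any 1 base between them were searched first and occurred in 16 windows (21.3%, against 4.71%), and it was replaced after its matches had been read, with 7 windows holding both spellings. These matches are descriptions of letters and were not tested. The 250 bases before the start are shown for Ndufs1 and Sdha, which were among the 3 members with the smallest *P* values, and for Cox8a and Cox8b, the abundant and the rare isoform of the same complex IV subunit. This set was chosen after the sequences and the values had been seen. Capitals mark matches to the strings above, without the first NRF-1 spelling. Ndufs1 (chr9:72073606-72073855, minus strand), Sdha (chr1:30764303-30764552, plus strand), Cox8a (chr1:213833624-213833873, minus strand) and Cox8b (chr1:205408274-205408523, minus strand) read 5′ to 3′ as follows.
Ndufs1: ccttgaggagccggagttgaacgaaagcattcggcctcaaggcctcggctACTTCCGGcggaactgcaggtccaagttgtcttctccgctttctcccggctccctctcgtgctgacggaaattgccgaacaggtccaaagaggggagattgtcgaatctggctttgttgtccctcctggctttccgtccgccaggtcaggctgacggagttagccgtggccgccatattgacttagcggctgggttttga
Sdha: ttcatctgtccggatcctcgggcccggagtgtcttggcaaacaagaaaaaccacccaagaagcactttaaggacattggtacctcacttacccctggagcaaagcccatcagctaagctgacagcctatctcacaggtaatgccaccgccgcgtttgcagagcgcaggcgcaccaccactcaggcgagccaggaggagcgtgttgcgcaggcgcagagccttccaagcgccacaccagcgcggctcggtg
Cox8a: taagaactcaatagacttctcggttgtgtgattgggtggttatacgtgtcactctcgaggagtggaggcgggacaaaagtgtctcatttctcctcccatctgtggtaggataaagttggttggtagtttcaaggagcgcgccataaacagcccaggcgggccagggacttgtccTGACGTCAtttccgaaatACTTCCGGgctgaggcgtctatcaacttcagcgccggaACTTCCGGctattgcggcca
Cox8b: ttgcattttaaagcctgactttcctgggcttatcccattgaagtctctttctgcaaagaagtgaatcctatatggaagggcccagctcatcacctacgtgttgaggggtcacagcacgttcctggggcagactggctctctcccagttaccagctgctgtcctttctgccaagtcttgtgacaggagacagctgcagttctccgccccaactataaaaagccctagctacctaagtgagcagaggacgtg
In these letters Cox8a carries 1 CREB string and 2 GABPA strings, Ndufs1 carries 1 GABPA string, and Sdha and Cox8b carry none of the 5 strings that the capitals mark. The first NRF-1 spelling, which is not in capitals, occurs 2 times in the Sdha letters shown.

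The spread between rats of the same diet was larger than the difference between the diets. For each rat, a level was taken as the median over the tested members of the log2 CPM (counts scaled to the same library total) relative to the gene's mean over the 6 rats. Among AL rats it was 0.21 for rat 61, -0.17 for rat 71 and -0.12 for rat 88. Among HD rats it was -0.0011 for rat 64, 0.09 for rat 67 and -0.03 for rat 69. Both the highest and the lowest rat belonged to the AL group, and the 3 HD rats lay between them. As a share of all counts, without TMM, the members made up 3.53%, 3.19% and 3.18% in AL rats 61, 71 and 88. In HD rats 64, 67 and 69 they made up 3.26%, 3.33% and 3.37%. Rat 61 held the highest value of the 6 rats in 55 of 85 members (64.7%, against 18.4% of all tested genes), and rat 71 held the lowest in 44 members (51.8%, against 18.6%). The values of HD lay above all AL values in 6 members (background 7.25% of all tested genes) and below all AL values in 0 (background 7.01%). The 6 were Ndufa10l1, Ndufs1, Sdha, Uqcrc2, Atp5a1 and Atp5b. Without rat 61, 79 of 85 members had a log2 fold change above 0, the median was 0.19, and 13 members (15.3%, all higher in the HD group) had an unadjusted *P* value below 0.05, where 14.9% of all tested genes did so and 6.32% did so with a higher value in the HD group. Without rat 71 or without rat 88, 1 member (1.18%) had an unadjusted *P* value below 0.05, against 7.67% and 5.26% of all tested genes. The median was then -0.03 and -0.0045. Without HD rat 64, 67 or 69, it was 2 (2.35%), 3 (3.53%) and 2 members (2.38%), against 5.53%, 8.31% and 15.6% of all tested genes. The median was then 0.06, 0.01 and 0.08. No member reached the adjusted threshold in edgeR in any of these fits, and the smallest adjusted *P* value of a member without rat 61 was 0.21 (edgeR, Benjamini-Hochberg).

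**Figure D2:**
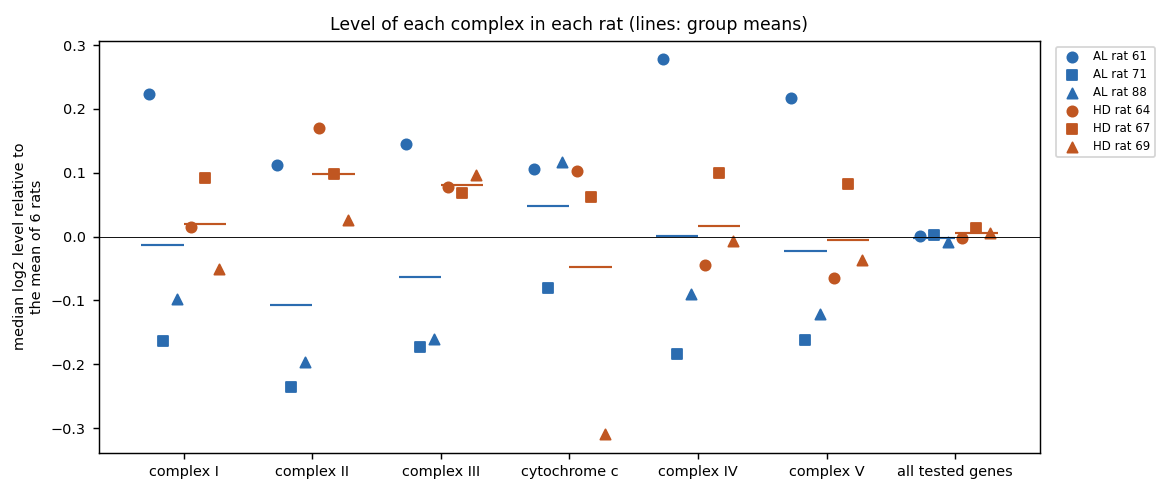
Level of each complex in each rat, as the median log2 CPM over its tested members relative to the mean of 6 rats; points are single rats and short lines the group means. Rat 61 (AL) is highest in complexes I, III, IV and V, rats 71 and 88 (AL) are lowest in complexes I, II, III, IV and V, and the points for all tested genes lie close to 0.

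Complex I, which oxidizes NADH and is the largest of the complexes, had 40 tested members with a median log2 fold change of 0.038, which ran from -0.04 to 0.17 when each rat was left out in turn. Of these, 26 were above 0 and 14 below, and 2 (Ndufa10l1 and Ndufs1) had an unadjusted *P* value below 0.05. The 7 core subunits, which hold the flavin and the iron-sulfur clusters, had a median of 0.12 with 6 above 0, and the 26 accessory subunits had a median of 0.02 with 15 above 0. Ndufs1, the largest iron-sulfur subunit, had a normalized CPM of 288, 287 and 286 in AL rats 61, 71 and 88, and of 409, 345 and 326 in HD rats 64, 67 and 69. The groups did not overlap and the AL values were nearly equal. Its log2 fold change was 0.33 ± 0.12 (SE), with an unadjusted *P* value of 0.0285 and an adjusted *P* value of 0.421 (edgeR, Benjamini-Hochberg). The exact two-sided permutation test gave *P* = 0.1, the smallest value that the 10 arrangements of 3 and 3 rats allow, here and for every other member with groups that did not overlap. Ndufb9, the accessory subunit with the highest mean TPM in this complex, had a CPM of 387, 282 and 297 in the AL rats and 268, 325 and 295 in the HD rats, a log2 fold change of -0.12 ± 0.15 (SE) with an adjusted *P* value of 0.844 (edgeR, Benjamini-Hochberg). Its groups overlapped. The lowest log2 fold change among the complex I symbols was that of Ndufaf6, an assembly factor, at -0.17 ± 0.30 (SE), from a CPM of 18.3, 15 and 24.9 in the AL rats and 23.1, 11 and 17.8 in the HD rats.

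The smallest *P* value of the members belonged to an entry whose reads cannot be separated from those of its neighbour. Ndufa10 and Ndufa10l1 are listed at the same place on chromosome 9 (build rn5), with 10 exons each, and all 1434 exon bases of Ndufa10l1 lie within the 1985 exon bases of Ndufa10. Estimation of counts split the reads between the entries, and Ndufa10l1 took between 53.5% and 68.7% of them. Ndufa10l1 had a CPM of 183, 185 and 169 in the AL rats and 280, 219 and 237 in the HD rats, without overlap, with a log2 fold change of 0.45 ± 0.13 (SE), an unadjusted *P* value of 0.00799 and an adjusted *P* value of 0.398 (edgeR, Benjamini-Hochberg). Ndufa10, an accessory subunit of the membrane arm, had a CPM of 159, 116 and 134 in the AL rats and 127, 153 and 170 in the HD rats, and the groups overlapped. Summed into 1 gene, which was done after the overlap had been seen, the locus stood at a CPM of 315 ± 22.5 in AL and 395 ± 20.2 in HD (mean ± SD, *n* = 3 each). The log2 fold change was 0.33 ± 0.11 (SE) with an unadjusted *P* value of 0.0207 and an adjusted *P* value of 0.406 (edgeR, Benjamini-Hochberg), and no HD rat overlapped with an AL rat. Ndufv3, another complex I subunit, is the sum of 2 transcripts, and the longer one of 1535 bases made up 8.94%, 15.1% and 17.0% of the gene's TPM in the AL rats and 9.76%, 12.9% and 17.6% in the HD rats, so that the ranges of both groups overlapped.

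Complex II, which is also the succinate dehydrogenase of the citric acid cycle, had 4 tested members, all with a log2 fold change above 0 and a median of 0.17. Sdha, the flavin subunit that oxidizes succinate, had a CPM of 658, 557 and 543 in the AL rats and 842, 679 and 712 in the HD rats. The groups did not overlap, although rat 61 (AL) and rat 67 (HD) were close. The log2 fold change was 0.34 ± 0.14 (SE), with an unadjusted *P* value of 0.0429 and an adjusted *P* value of 0.458 (edgeR, Benjamini-Hochberg). The membrane anchor Sdhc had a CPM of 702, 605 and 559 in the AL rats and 734, 667 and 686 in the HD rats, and the other anchor, Sdhd, had 628, 468 and 491 against 621, 609 and 501. Both overlapped between the groups, with log2 fold changes of 0.16 ± 0.13 (SE) and 0.13 ± 0.16 (SE). In complex III, 7 of 8 members were above 0 and the median was 0.15. Uqcrc2, a core protein, had a CPM of 486, 454 and 446 in the AL rats and 561, 507 and 499 in the HD rats, without overlap, at a log2 fold change of 0.18 ± 0.11 (SE) and an adjusted *P* value of 0.639 (edgeR, Benjamini-Hochberg). The largest log2 fold change of the complex was that of Uqcrq at 0.19 ± 0.15 (SE), with a CPM of 238, 164 and 178 in the AL rats and 226, 221 and 216 in the HD rats, and the lowest was that of Uqcrb at -0.02 ± 0.13 (SE), with 245, 199 and 222 against 203, 248 and 204. Both are small subunits, and both overlapped between the groups. Uqcr11, a small subunit with the highest TPM of the complex, had a CPM of 375, 273 and 264 in the AL rats and 307, 333 and 341 in the HD rats. Cycs had a CPM of 3038, 2669 and 3060 in the AL rats and 3031, 2947 and 2277 in the HD rats, so that rat 69 (HD) was the lowest and the groups overlapped, at a log2 fold change of -0.09 ± 0.16 (SE).

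**Figure D3:**
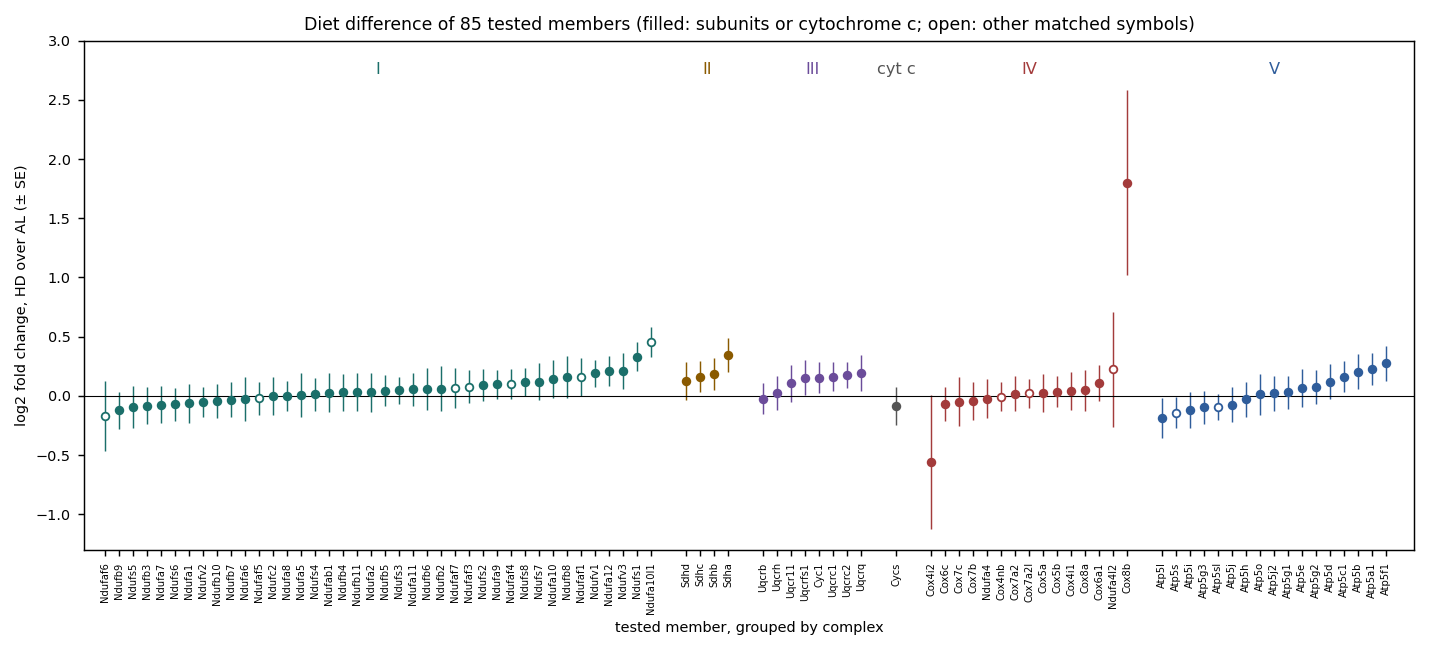
Log2 fold change of HD over AL with its standard error for the 85 tested members, grouped by complex and ordered by value; filled points are subunits or cytochrome c and open points the other symbols. Most members lie near 0, all 4 of complex II and 7 of 8 of complex III lie above it, and Cox8b stands apart at 1.80 with a wide error.

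Complex IV had 15 tested members with a median log2 fold change of 0.021 (-0.07 to 0.14 with a rat left out), 9 above 0 and 6 below. In edgeR 0 of them fell under an unadjusted *P* value of 0.05, and DESeq2 placed 1, Cox8b, there. Several of its subunits exist as a common form and as forms of other tissues. Cox8b, the form of subunit 8 known from heart, skeletal muscle and brown fat, had the largest log2 fold change of all members. Its CPM was 3.02, 0.55 and 0.86 in the AL rats and 1.36, 7.29 and 6.27 in the HD rats. Rats 67 and 69 of the HD group were high, rat 64 of the same group lay below rat 61 of the AL group, and the groups overlapped. The log2 fold change was 1.80 ± 0.78 (SE), with an unadjusted *P* value of 0.0520 and an adjusted *P* value of 0.473 (edgeR, Benjamini-Hochberg), and DESeq2 gave an unadjusted *P* value of 0.0209. Without rat 61 the log2 fold change was 2.84. Cox8a, the common form, had a CPM of 1092, 728 and 839 in the AL rats and 945, 973 and 828 in the HD rats, a log2 fold change of 0.05 ± 0.17 (SE). Cox8b made up 0.253% ± 0.181 of the TPM of subunit 8 in AL and 0.908% ± 0.579 in HD (mean ± SD, *n* = 3 each), and Cox8a made up the rest, as Cox8c, the testis form, was listed at 0.

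The rats with more Cox8b also had more transcripts of fat cells. Of 9 fat markers 8 were tested, and all 8 had a log2 fold change above 0 with a median of 2.08, though 0 reached the adjusted threshold (edgeR, Benjamini-Hochberg) and 2 (Ucp1 and Plin1) had an unadjusted *P* value below 0.05. Their summed CPM ran from 49.2 to 116 in the AL group and from 26.2 to 323 in the HD group, and Elovl3, the untested marker, had at most 2 counts in a rat. Ucp1, the uncoupling protein of brown fat, had a CPM of 4.69, 0.17 and 0.40 in the AL rats and 0.34, 35.7 and 46.8 in the HD rats. Adipoq, a hormone of fat cells, had 36.5, 14.0 and 17.2 against 21.0, 69.3 and 39.7. Both were high in rats 67 and 69 and low in rat 64, as Cox8b was. Across the 6 rats, which share these libraries, Pearson's *r* of Cox8b was 0.976 with Ucp1 and 0.966 with Adipoq, and Spearman's rho was 0.886 and 1.0. These were the highest *r* values of the 8 tested fat markers, and the lowest was 0.68 (Fabp4). The lowest rho was 0.71 (Cidea). Of the muscle markers, 8 of 26 listed genes were tested, of which 7 were above 0 with a median log2 fold change of 0.87. In edgeR 3 of them (Tnnc1, Mb and Pgam2) had an unadjusted *P* value below 0.05, with HD rats above all AL rats, and 0 passed the adjusted threshold, while DESeq2 placed 2 (Tnnc1 and Pgam2) past it. Their summed CPM was 44.0 to 90.5 in the AL group and 79.4 to 89.6 in the HD group, and *r* with Cox8b ran from -0.36 to 0.83. The part of fat or muscle cells in the Cox8b values was not tested, and in bulk tissue more cells of a type and more RNA per cell cannot be told apart.

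**Figure D4:**
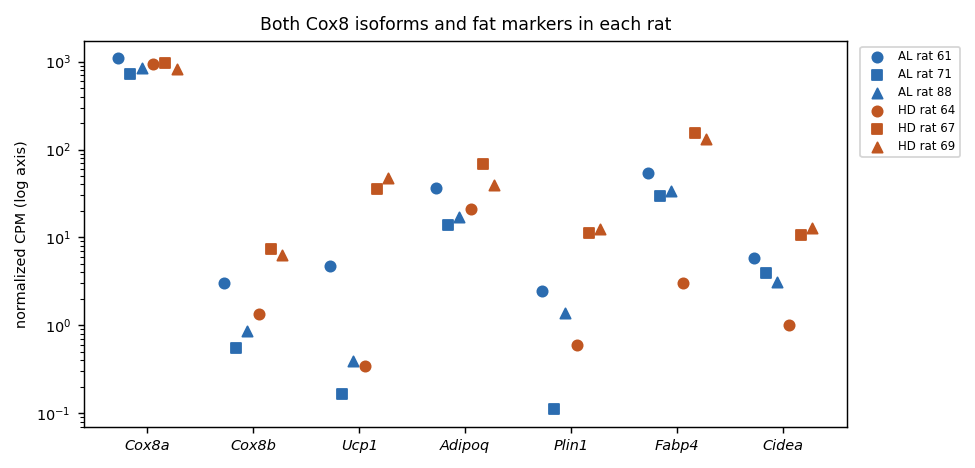
Normalized CPM (log axis) of Cox8a, Cox8b and 5 fat markers in each rat; blue symbols are AL and orange symbols HD. Cox8a is level across the rats, while Cox8b and Ucp1 are highest in HD rats 67 and 69 and low in HD rat 64.

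None of the other isoform genes of complexes IV and V had an unadjusted *P* value below 0.05 in edgeR. Cox4i1, the common form of subunit 4, had a CPM of 874, 615 and 657 in the AL rats and 676, 757 and 777 in the HD rats. Cox4i2, the form known from lung and induced by low oxygen, had 1.91, 1.61 and 1.65 against 0.34, 1.05 and 1.95, a log2 fold change of -0.56 ± 0.56 (SE), and made up 0.240% ± 0.023 and 0.145% ± 0.099 (mean ± SD, *n* = 3 each) of the TPM of subunit 4. Cox6a1 had a CPM of 626, 468 and 451 in the AL rats and 575, 562 and 529 in the HD rats. Its muscle form Cox6a2 gave at most 0.079% of the TPM of subunit 6a in any rat. Cox7a2 had 410, 302 and 340 against 338, 391 and 336, and Cox7b had 446, 314 and 320 against 341, 377 and 328. Cox7a2 and Cox7b overlap on the opposite strand with other listed genes by 100 and 68 bases, and the library kit does not mark the strand. The c subunit that forms the rotor ring of ATP synthase comes from 3 genes with the same mature protein, Atp5g1, Atp5g2 and Atp5g3. They made up 24.4% ± 1.45, 32.7% ± 1.02 and 42.9% ± 0.47 of its TPM in the AL group and 25.1% ± 2.40, 34.6% ± 1.59 and 40.3% ± 1.25 in the HD group (SD, *n* = 3). For Atp5g3 the share was 43.1%, 42.3% and 43.2% in the AL rats and 40.0%, 41.7% and 39.2% in the HD rats, so that the shares of the groups did not overlap. The difference in share was not tested. The Atp5g3 CPM of 705, 535 and 559 against 548, 598 and 534 overlapped, as did that of Atp5g1 (316, 263 and 240 against 261, 270 and 304) and that of Atp5g2 (481, 360 and 393 against 445, 450 and 404).

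Complex V had 17 tested members with a median log2 fold change of 0.022 (-0.05 to 0.17 with a rat left out), 10 above 0 and 7 below. In edgeR 0 of them fell under an unadjusted *P* value of 0.05. The 5 subunits of the catalytic F1 head and its stalk (Atp5a1, Atp5b, Atp5c1, Atp5d and Atp5e) were all above 0 with a median of 0.16, and the 10 subunits of the membrane part and peripheral stalk had a median of -0.0088 with 5 above 0. Atp5a1 had a CPM of 2280, 1992 and 2068 in the AL rats and 2675, 2431 and 2304 in the HD rats, and Atp5b had 4768, 4052 and 4049 against 4879, 4795 and 5151. Neither overlapped between the groups. Their log2 fold changes were 0.22 ± 0.14 (SE) and 0.20 ± 0.15 (SE), with adjusted *P* values of 0.620 and 0.679 (edgeR, Benjamini-Hochberg). The highest log2 fold change of the complex was that of Atp5f1, the b subunit of the peripheral stalk, at 0.27 ± 0.15 (SE), with a CPM of 649, 511 and 525 in the AL rats and 758, 657 and 622 in the HD rats. The files list Atp5f1 at 2 places, and the counts of both were added. The lowest was that of Atp5l, the g subunit of the membrane part, at -0.18 ± 0.17 (SE), with 588, 403 and 446 against 394, 472 and 398. Both overlapped between the groups.

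The members were short, with a median length of 723 bases against 2130 over all tested genes. The 6 of 85 with all HD rats above all AL rats were not above the background share (7.25% of all tested genes). All 6 were of 1000 bases or more. The 50 tested members under 1000 bases had a median log2 fold change of 0.02, with 28 above 0 and 0 at an unadjusted *P* value below 0.05. The 35 members of 1000 bases or more had a median of 0.13, with 28 above 0, and they included all 3 with an unadjusted *P* value below 0.05 and all 6 that did not overlap. Over all tested genes the medians were 0.027 for the 1135 under 1000 bases and 0.0049 for the 10418 of 1000 bases or more. All HD rats lay above all AL rats in 68 of these 1135 short genes and in 770 of the 10418 long ones. In edgeR 51 of the 1135 short genes and 487 of the 10418 long ones were higher in HD at an unadjusted *P* value below 0.05. The difference between the length groups was not tested. In rat 61 the level was 0.27 for the short members and 0.12 for the long ones, and it was 0.17 for all short tested genes and -0.01 for all long ones. In rat 71 it was -0.16 for the short members, -0.17 for the long members, -0.14 for all short genes and 0.01 for all long genes. The set of all short genes includes the short members, and the 6 rats stood in the same order of level in both sets. Short and long members alike were highest in rat 61 and lowest in rats 71 and 88. The part of transcript length in these values was not tested. Complex I had 10 long subunits, all above 0 with a median of 0.09, and 23 short ones with a median of -0.00064. Complex V had 4 long subunits, all above 0 with a median of 0.21, and 11 short ones with a median of 0.013. Complex III had 6 long subunits, 5 of them above 0, with a median of 0.16, and 2 short ones with a median of 0.063. In complex II Sdhb alone was short. Finer divisions of length were looked at before this one was kept.

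**Figure D5:**
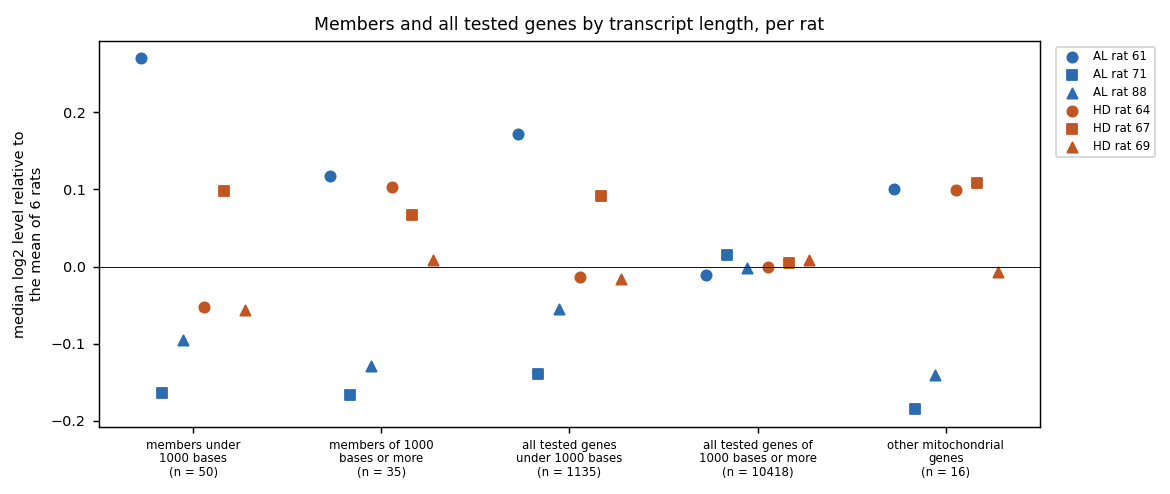
Median log2 level in each rat relative to the mean of 6 rats, for members and for all tested genes under and over 1000 bases, and for 16 other mitochondrial genes; blue symbols are AL and orange symbols HD. Short members, long members and all short genes are each highest in AL rat 61 and lowest in AL rats 71 and 88. The other mitochondrial genes are also lowest in rats 71 and 88.

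Other mitochondrial genes were described beside the members. A list of 16 genes for outer membrane channels, import, chaperones and inner membrane shape had 15 genes above 0 and a median log2 fold change of 0.15, and 1, Immt, had an unadjusted *P* value below 0.05. Immt organizes the cristae where the complexes sit. It had a CPM of 156, 177 and 164 in the AL rats and 233, 198 and 196 in the HD rats, with a log2 fold change of 0.34 ± 0.12 (SE) and an adjusted *P* value of 0.408 (edgeR, Benjamini-Hochberg). The level of this list was 0.10, -0.19 and -0.14 in the AL rats and 0.10, 0.11 and -0.0070 in the HD rats. Rats 71 and 88 were thus lowest, as they were for the short and the long members. The assembly factors, which include the 6 Ndufaf members, were tested for 11 genes of complex I, 1 of complex II, 4 of complex III, 16 of complex IV and 4 of complex V, with median log2 fold changes of 0.08, 0.10, -0.06, 0.15 and 0.08. In edgeR 0 of them fell under an unadjusted *P* value of 0.05. Of 17 regulators of mitochondrial biogenesis, among them Ppargc1a, Nrf1, Gabpa, Esrra and Tfam, 0 did so, and the median was 0.05. Among 12 tested genes of ATP exchange and coupling, those with an unadjusted *P* value below 0.05 included Ucp1, Ucp3 and Ak4. Ak4, an adenylate kinase of the mitochondrial matrix, had a CPM of 41.1, 57.1 and 35.9 in the AL rats and 124, 73 and 91.4 in the HD rats, without overlap, with an adjusted *P* value of 0.368 in edgeR and 0.00437 in DESeq2 (both Benjamini-Hochberg). It was the only gene of that list past the adjusted threshold in DESeq2.

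Markers of the cells in the tissue also differed from rat to rat. The proximal tubule was marked by 11 tested genes of 12, which were present in all libraries, with a summed CPM of 23312 to 26514 in the AL group and 24630 to 30454 in the HD group, and a median level over the genes that was lowest in rats 88 (-0.30) and 71 (-0.20). The summed TPM of the same genes was instead lowest in rats 69 (35561) and 61 (37113), with 38514 in rat 71 and 39949 in rat 88. Kap alone had a CPM of 10022 (rat 69) to 12795 (rat 88), a large part of the summed CPM. By gene, 8 of the 11 had a log2 fold change above 0 and 3 below, with a median of 0.41. In edgeR 4 were higher in HD at an unadjusted *P* value below 0.05 (background 4.66%), and 0 passed the adjusted threshold. DESeq2 placed 3 (Slc22a6, Slc22a8 and Slc13a3) past it (background 1.58%). In 5 of the 11 the HD rats lay above all AL rats (background 7.25%). The 10 thick ascending limb markers summed to 7484 to 8825 in the AL group and 5520 to 8531 in the HD group. By gene, 9 of the 10 had a log2 fold change below 0 and 1 above, with a median of -0.15. Slc12a1, at -0.86 ± 0.31 (SE), was the only one lower in HD at an unadjusted *P* value below 0.05 in edgeR (background 5.94%). It was also the only one with all HD rats below all AL rats (background 7.01%). The leukocyte markers (7 tested of 8) summed to 315 to 712 in the AL group and 172 to 360 in the HD group, with the highest levels in rats 71 (1.24) and 88 (0.55). All 7 had a log2 fold change below 0, with a median of -1.22. Of these, 4 were lower in HD at an unadjusted *P* value below 0.05 in edgeR (background 5.94%), and 0 passed the adjusted threshold. DESeq2 placed 2 past it (background 1.58%). In 3 of the 7 the HD rats lay below all AL rats (background 7.01%). The endothelial markers summed to 167 to 498 and 110 to 364, with the highest levels in rats 88, 71 and 69. By gene, 7 of 8 had a log2 fold change below 0 and 1 above, with a median of -0.33. The distal convoluted tubule markers (4 tested of 5 listed) summed to 101 to 176 in the AL group and 240 to 777 in the HD group, without overlap. The podocyte markers summed to 65.4 to 141 in the AL group and 200 to 432 in the HD group, without overlap. Rats 71 and 88, which had the lowest levels of complexes I, II, III, IV and V, were also the highest in leukocyte markers. They were the lowest in proximal tubule markers by median level and by summed CPM, and not by summed TPM. The part of cell composition in the members' values was not tested.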

How the data were processed

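Kidney poly(A) RNA of 6 rats was sequenced (Illumina HiSeq, single reads of 100 bases, a kit that does not mark strand). Per the labels, the authors estimated transcript levels with RSEM 1.1.15 on build rn5, and per the file headers the deposited values are expected counts and TPM for each transcript. Here the expected counts were summed per gene symbol, rounded, filtered at 30 counts in at least 1 rat and tested with edgeR 4.0.16 (TMM, quasi-likelihood, diet only, Benjamini-Hochberg over 11553 genes; R 4.3.3). Folds come from this fit, CPM is scaled by TMM, and permutation tests and per-rat levels used log2(CPM + 0.5). TPM was summed per gene as deposited. Alternatives were DESeq2 1.42.0, other scalings, filters and counts, and leaving out each rat. The test was checked on simulated counts with log2 changes larger than that of any member, so the check does not show how it does with smaller ones. The labels name no batch, and none was modelled. Libraries of the same diet differed beyond sampling noise, so each counted as 1 sample. The precision of a value is set by 3 rats per group.

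The members, gene lists and markers were chosen with earlier results of these data known. Values in every rat are given for members with an unadjusted *P* value below 0.05, for the highest and lowest log2 fold change and the highest TPM in each complex, and for isoform genes. Other members and the sequences shown were named after their values were seen, and so was the second of 2 spellings searched for NRF-1. Sequences are RefSeq's (build GRCr8). Coordinates of both builds were kept apart. Some genes of the lists are not reported here.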

Additional observations from a re-analysis of the deposited data

How the results depend on the processing

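The count of members at the adjusted threshold was 0 under every setting tried, DESeq2 included. The count of members at an unadjusted *P* value below 0.05 was 3 (background 10.6%), and between 2 and 4 under the other settings. It was between 1 and 13 when each rat was left out in turn. Without AL replicate 1, which is rat 61, it was 13 (15.3%, background 14.9%). Without AL replicate 2 or 3, rats 71 and 88, it was 1 (1.18%, background 7.67% and 5.26%). The median log2 fold change of the members lay between -0.04 and 0.04 under the other settings and between -0.03 and 0.19 with a rat left out. Scaling by library size alone took the median over all tested genes to -0.07, from 0.0067, left 33 of 85 members above 0, and turned Cox8a to -0.025, Cox4i1 to -0.025, Cox7a2 to -0.055 and Atp5g1 to -0.043. TMM factors from genes under 1000 bases turned Cox7a2 to -0.0018. With a rat left out, members near 0 changed sign: Ndufb9 ranged from -0.21 to 0.031, Uqcrb from -0.12 to 0.054, Cox7b from -0.14 to 0.14, Atp5g3 from -0.17 to 0.033, Ndufaf6 from -0.42 to 0.072, Cox8a from -0.077 to 0.22, Cox7a2 from -0.080 to 0.14, Cycs from -0.16 to 0.038, Atp5g1 from -0.050 to 0.15, Cox4i1 from -0.056 to 0.21 and Atp5g2 from -0.012 to 0.20. The cause was not tested. The medians of complex II (0.12 to 0.28) and complex III (0.07 to 0.25) stayed above 0 with any 1 rat left out, while those of complex I (-0.04 to 0.17), complex IV (-0.07 to 0.14), complex V (-0.05 to 0.17) and cytochrome c (-0.16 to 0.04) changed sign, and scaling by library size alone took complexes I, IV and V to -0.03, -0.05 and -0.05. No paired analysis was possible because the labels give each rat its own number and none is shared between the groups. Precision is limited by 3 rats per group and, for Cox8b and Cox4i2 with few counts, also by depth.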
